A study of Mus musculus with 8 samples.

Results

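The Pramel and oogenesin genes of the mouse were described in morulae that had received siRNA against P150, a subunit of CAF-1, the chaperone that assembles nucleosomes on newly replicated DNA. Members were chosen by name alone: a gene belonged to the family where the accession of an array probe joined to a RefSeq symbol made of Pramel or Pramef and a number, or to Oog1, Oog2, Oog3 or Oog4. RefSeq lists 51 such genes, and 31 of them had a named probe, out of 20660 genes with a named probe on the array. The other 20, among them Oog1 and Pramel1, had no named probe, so no expression values are given for them. Start-site sequences of some of these genes, Oog1 and Pramel1 included, were compared. The family was proposed with the outcome of the comparison known, so its values against the controls are given as a description and support nothing about the family as a whole.

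Pramel genes encode leucine-rich-repeat proteins related to human PRAME, which is known as a substrate receptor of a cullin-based ubiquitin ligase. They form large tandem clusters of similar copies, and many are active in germ cells and early embryos. The oogenesins Oog1 to Oog4 are family members known from oocytes. Pramel7 is known from the inner cell mass, where it directs the DNA methylation factor Uhrf1 to degradation, and Pramel6 is its neighbour and close relative.

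The embryos called P150KD were fertilised in vitro, injected at the 1-cell stage with siRNA against P150, cultured in KSOM medium and collected as morulae at embryonic day 3. Those called siControl were handled alike and received a control siRNA. Each of the 5 P150KD arrays and 3 siControl arrays carried RNA pooled from 10 embryos, amplified linearly in a pair of rounds before Cy3 labelling. The strain is not given in the sources used here, and nothing in the labels says that the arrays hold separate collections, so a p-value here refers to the spread among these arrays, which may be technical. With 8 arrays the precision of each value is limited. Levels are on a log2 scale on which 0 is the 75th percentile of the array, so they compare groups for 1 probe and not 1 gene with another. A difference is P150KD minus siControl on that scale.

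Chaf1a, which encodes P150, checks the labels. It read -1.47, 0.52, -0.48, -1.45 and -0.23 on P150KD arrays 1 to 5, against 2.40, 2.09 and 2.27 on siControl arrays 1 to 3. Every P150KD array was below every siControl array, and the difference was -2.88 (SE 0.48, limma adjusted p = 0.0107). Per array, 50.1% to 55.9% of spots passed as well above background and 0 were saturated. All arrays lay on 1 slide, whose first column held P150KD array 1 and the 3 siControl arrays, while P150KD arrays 2 to 5 lay in the second. Of 10 tested morula markers 0 rose and 3 fell (Krt18, Gata3 and Sox2), and their mean level ran from 2.58 to 3.39 on P150KD arrays and from 4.24 to 4.43 on siControl arrays. Among 11 tested oocyte markers 1 rose, the zona pellucida gene Zp3 (2.60, SE 0.26, adjusted p = 0.00244), 0 fell, and the list's mean level was -1.32 to -0.64 on P150KD arrays and -2.14 to -1.43 on siControl arrays. The oocyte kinase gene Mos was not well above background on any array. The cumulus markers Ptx3, Has2, Tnfaip6, Fshr and Inhba were not above background on any array either. Another cumulus marker, Foxl2, was above background on every array, with means of 0.94 in P150KD and 0.77 in siControl. Cyp19a1 was above background on 2 P150KD and 2 siControl arrays. Neither of these 2 tested genes was called. Amh was above background on 1 siControl array and 0 P150KD arrays and was not tested. Sperm markers gave 0 calls among 5 tested, and testis germ cell markers 1 rise among 5, Tex101 (3.17, SE 0.41, limma adjusted p = 0.00483). Beside these counts, 6.65% of all 14601 tested genes rose and 10.5% fell. Which part these lists have in the family's values was not tested.

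In P150KD morulae 15 of the family's 29 tested genes rose and 0 fell, where a call is a limma adjusted p under 0.05 over all 30348 tested probes, with the brightest probe standing for its gene. By the same rule 6.65% of all 14601 tested genes rose and 10.5% fell. Pramel32, above background on no siControl array, passed the filter on dim probes through its P150KD arrays alone. Without such genes 14 of 28 members rose, against 5.99% of the 14196 genes above background on 1 or more siControl arrays. Pramel19, among these 14, was above background on 1 siControl array and so also needed its P150KD arrays to pass. The 13 risen genes above background on all siControl arrays differed by 0.85 to 4.87, with a median of 1.81; Pramel19 was above background on 1 siControl array and Pramel32 on 0. Of the 14 that were not called, 7 read higher and 7 lower, between -1.42 and 3.32. At an unadjusted limma p under 0.05, 19 members were higher and 1 was lower. The same threshold was passed by 9236 of all 30348 tested probes, both directions together. Pramel5 was called lower under 3 of the 20 alternatives, with array weights, with trend and robust moderation and with only probes above background on all 8 arrays. All P150KD arrays stood above all siControl arrays in 19 members, which 10.2% of all genes did, and below them in 1 member, which 21.8% of all genes did. The median difference was 1.20 over the family, against -0.24 over all tested genes. With the siControl arrays of Pramel32, none of which measured it, counted at the lowest signal that passed as above background, the median was 1.19. Pramel27 and Pramel3 were above background on no array and were not tested. Whether more cells or more RNA per cell carried a transcript cannot be told apart in pooled embryos.

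The median of the family over all its tested genes stood 1.16, 1.33, 0.91, 1.45 and 1.09 above the siControl mean on P150KD arrays 1 to 5, against -0.14, 0.052 and 0.048 on siControl arrays 1 to 3. P150KD array 1, which shared its slide column with the controls, lay within the range of the other P150KD arrays. The second slide column held P150KD arrays alone. A fit with slide column as a block therefore rests on P150KD array 1 against the 3 siControl arrays. Its family median of 1.16 repeats that of array 1 and is no separate check. Leaving out 1 array gave 5 to 13 called members: 5 without siControl replicate 1 or 3, 7 without siControl replicate 2, 6 without P150KD replicate 1 and 8 without P150KD replicate 4. Pramel16, Pramel31 and Pramel51 were called whichever array was left out. Of the 20 alternatives, 18 called each of these genes, while Pramel13 was called under 9 and Pramel15 under 8, and the other risen genes lay between, at 10 to 17 (Pramel19 and Pramel32 had 19 alternatives). Among the genes without a call, Pramel34 was called higher under 7 alternatives, and Pramel17 and Pramel37 under 5 each. Scaled to housekeeping genes, which moved the median of all probes to 0.47, against -0.20 in the main scaling, the family median was 1.88, and Pramel4, Pramel5, Pramel6 and Pramel24 read higher in P150KD instead of lower; quantile normalization turned Pramel4, Pramel6 and Pramel24 likewise. Pramel4, Pramel6 and Oog2 were called higher with housekeeping scaling and under no other alternative.

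**Figure D1:**
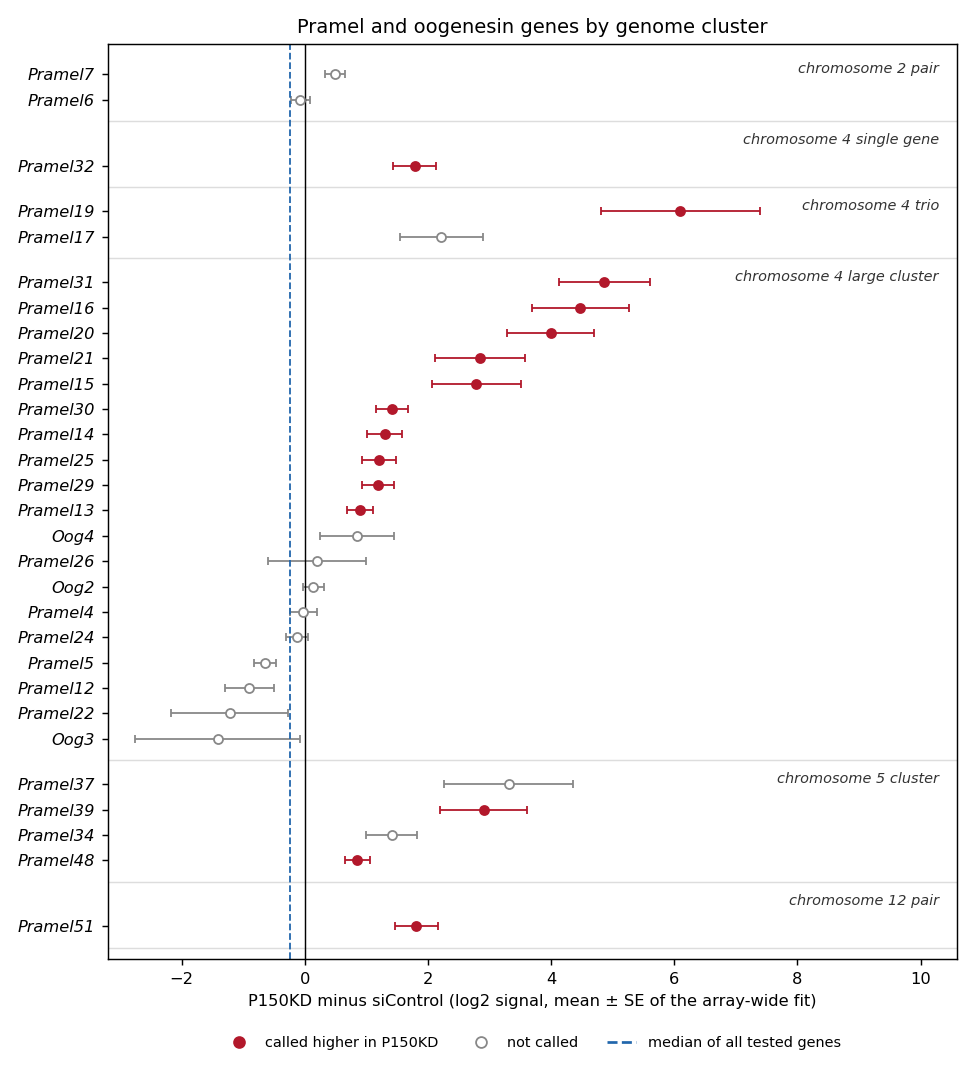
Difference between P150KD and siControl (log2 signal, mean ± SE of the limma fit, 5 and 3 arrays) for the 29 tested members, 1 point a gene, grouped by genome cluster; filled red points were called higher in P150KD and open grey points were not called. The dashed line marks the median of all tested genes at -0.24. Pramel32 was above background on no siControl array and Pramel19 on 1 of 3, so their points are not measured folds.

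Family members with under 1 Mb between neighbours were taken as 1 cluster. The large cluster on chromosome 4 holds 24 of the RefSeq genes; 19 were tested, 10 rose, 0 fell, and the median was 0.90 with a range of -1.42 to 4.87. In the chromosome 5 cluster of 18 genes only 4 were tested, all read higher, 2 rose and the median was 2.16. A trio elsewhere on chromosome 4 gave 1 rise among 2 tested genes, Pramel51 of a pair on chromosome 12 rose, the single gene Pramel32 on chromosome 4 was called but measured on no siControl array, and neither member of the chromosome 2 pair was called. Over all 14601 tested genes, 6.65% rose and 10.5% fell. Whether the clusters differ from one another was not tested.

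Pramel31, Pramel20 and Pramel16, in the large chromosome 4 cluster, had the largest differences among members above background on all 8 arrays. Pramel31 read 4.68, 2.87, 2.26, 5.01 and 3.85 on P150KD arrays 1 to 5, against -1.39, -2.01 and -0.0004 on siControl arrays 1 to 3. Its difference was 4.87 (SE 0.75), a 29.2-fold higher signal, and the lowest P150KD array stood clear of the highest siControl array. Pramel20 read 6.57, 4.46, 3.93, 6.31 and 5.37 on the P150KD arrays, against 0.34, 1.53 and 2.14 on the siControl arrays, a 15.9-fold higher signal (3.99, SE 0.71). Pramel16 read 3.55, 1.59, 0.98, 3.66 and 2.75 in P150KD, against -3.28, -1.60 and -1.03 in siControl, a 22.3-fold higher signal (4.48, SE 0.78). In all of these genes P150KD arrays 1, 4 and 5 read higher than arrays 2 and 3, and every one of the 5 read higher than any control.

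Pramel20 and Pramel31 also share the sequence around their start sites, which is shown here because both rose and both followed the same order of arrays. The windows run from 250 bases before to 50 bases after the annotated start and are RefSeq sequences of GRCm38.p6; over 271 aligned bases they were 92.6% identical. The Pramel20 window is chr4:143567217-143567516 on the plus strand and the Pramel31 window is chr4:144357714-144358013 on the plus strand. Capitals mark the letters TATAAA, found by search of both strands, which begin 38 bases before the Pramel20 start and 68 bases before the Pramel31 start.
Pramel20: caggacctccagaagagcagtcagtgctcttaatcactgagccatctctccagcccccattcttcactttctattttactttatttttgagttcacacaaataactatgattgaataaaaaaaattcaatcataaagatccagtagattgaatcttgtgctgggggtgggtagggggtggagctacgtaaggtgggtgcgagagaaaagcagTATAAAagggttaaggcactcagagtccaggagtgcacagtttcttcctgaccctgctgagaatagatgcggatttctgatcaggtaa
Pramel31: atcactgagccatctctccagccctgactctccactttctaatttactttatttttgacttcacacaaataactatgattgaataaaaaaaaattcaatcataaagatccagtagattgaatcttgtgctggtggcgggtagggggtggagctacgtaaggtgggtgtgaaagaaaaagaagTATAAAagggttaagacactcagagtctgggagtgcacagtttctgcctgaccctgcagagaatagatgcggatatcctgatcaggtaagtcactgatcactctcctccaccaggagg
Windows of 3 genes outside the family by name matched both. Those of Gm13040 and Gm13057 were identical to Pramel20 over 300 bases and 92.6% identical to Pramel31 over 271 bases. Neither of these genes had a named probe. The window of Gm13043 was 93.3% identical to Pramel20 over 270 bases and 94.7% identical to Pramel31 over 300 bases. Gm13043 read 6.66, 4.91, 4.60, 6.75 and 5.56 on P150KD arrays 1 to 5, against 0.98, 1.06 and 2.72 on siControl arrays 1 to 3. It rose by 4.11 (SE 0.66, limma adjusted p = 0.00947) and had the same order of P150KD arrays, 1 and 4 above 5 and 5 above 2 and 3. P150KD array 1 alone, in the slide column of the controls, stood 5.08 above the siControl mean of Gm13043. How far the probes of these near-identical copies bind one another's RNA was not tested, since probe sequences were not used here.

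Pramel21 and Pramel15 rose less. Pramel21 read 3.73, 0.70, 1.67, 3.34 and 3.06 in P150KD, against -0.84, -0.53 and 0.32 in siControl, a difference of 2.85 (SE 0.73). Its groups did not overlap, and P150KD array 2 came closest to the controls. Pramel15, known for directing the methyltransferase Dnmt1 to degradation in the zygote, read 0.43, 0.53, -0.22, -1.16 and -1.33 in P150KD, against -4.61, -1.80 and -3.01 in siControl, a difference of 2.79 (SE 0.72). Its arrays were ordered otherwise: P150KD arrays 1, 2 and 3 read above 4 and 5. The Pramel15 call was lost with quantile or median scaling, no filter, the mean of its probes, either block, and 6 of the 8 arrays left out in turn.

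**Figure D2:**
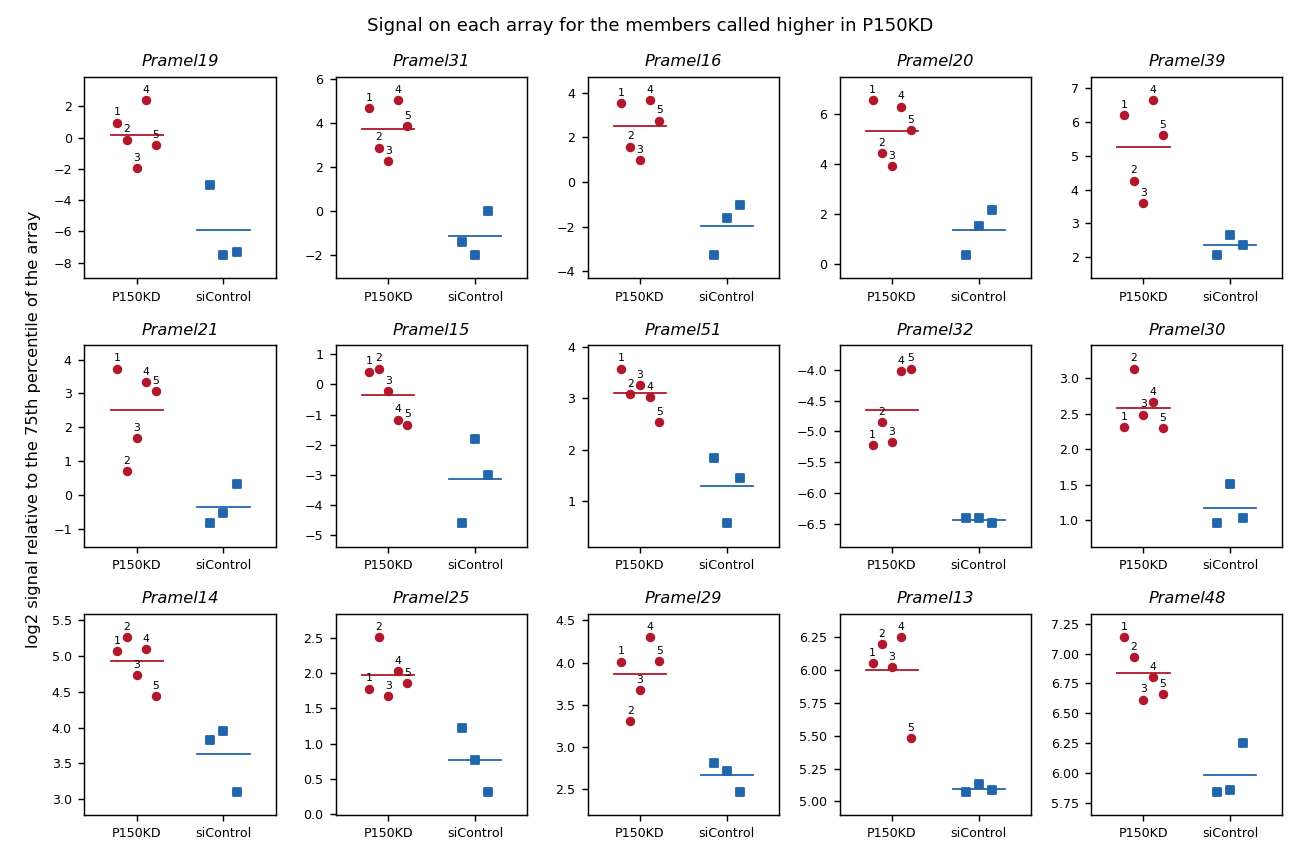
Log2 signal, with 0 at each array's 75th percentile, for the 15 members called higher in P150KD, 1 panel a gene, with red circles for the 5 P150KD arrays (numbered) and blue squares for the 3 siControl arrays; lines are group means and each panel has its own vertical scale. No panel has overlapping groups, and P150KD arrays 2 and 3 are the lowest of the 5 in Pramel31, Pramel16, Pramel20, Pramel39, Pramel21 and Pramel29.

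P150KD arrays 2 and 3 were the lowest of the 5 in 8 of the 29 tested members: Pramel16, Pramel20, Pramel21, Pramel29, Pramel31 and Pramel39, which rose, and Pramel17 and Pramel37, which were not called. The same order was found in 15.7% of all tested genes and in 22.8% of all risen genes. The mean level of 12 tested genes of the 2-cell stage had it too, at 2.41, 0.46, 0.026, 2.30 and 1.65 on P150KD arrays 1 to 5, against -3.35, -2.39 and -2.76 on siControl arrays 1 to 3. Of these 12 genes 8 rose and 0 fell, beside 6.65% risen and 10.5% fallen among all tested genes. Tdpoz3 and Usp17lb, among the 8, were above background on no siControl array and passed the filter through P150KD alone. Without them 6 of 10 rose, against 5.99% of all genes above background on 1 or more siControl arrays. Tcstv1 and Tdpoz4, among these 6, were above background on 2 siControl arrays and so also needed P150KD arrays to pass. For instance Zscan4f, a marker of the 2-cell stage, rose by 3.47 (SE 0.75, limma adjusted p = 0.0244). What part the 2-cell genes have in the order of the family's arrays was not tested.

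Pramel14 and Pramel30, also in the large chromosome 4 cluster, rose by a smaller and more even amount. Pramel14 read 5.08, 5.27, 4.74, 5.10 and 4.45 in P150KD, against 3.83, 3.95 and 3.11 in siControl, a 2.46-fold higher signal (1.30, SE 0.28). Pramel30 read 2.31, 3.14, 2.49, 2.67 and 2.30 in P150KD, against 0.95, 1.52 and 1.03 in siControl, a 2.67-fold higher signal (1.42, SE 0.26). In neither gene did P150KD arrays 1, 4 and 5 stand above arrays 2 and 3, and array 2 was the highest in both.

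Their start windows are near copies, and that of Pramel7 on chromosome 2 is a more distant relative; the 3 are shown together because the group contains both called and uncalled genes. The windows are chr4:143994320-143994619 on the minus strand for Pramel14, chr4:144329999-144330298 on the plus strand for Pramel30 and chr2:87492369-87492668 on the minus strand for Pramel7. Capitals mark bases that differ from the aligned Pramel14 window or face a gap in it: Pramel30 had 6 substitutions and 2 gap columns, and Pramel7 had 55 substitutions and 22 gap columns.
Pramel14: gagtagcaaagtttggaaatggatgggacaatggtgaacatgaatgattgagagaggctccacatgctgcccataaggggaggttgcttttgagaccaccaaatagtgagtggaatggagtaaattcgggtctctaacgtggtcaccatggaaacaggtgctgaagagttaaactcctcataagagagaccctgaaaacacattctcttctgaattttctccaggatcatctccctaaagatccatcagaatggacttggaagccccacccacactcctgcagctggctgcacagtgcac
Pramel30: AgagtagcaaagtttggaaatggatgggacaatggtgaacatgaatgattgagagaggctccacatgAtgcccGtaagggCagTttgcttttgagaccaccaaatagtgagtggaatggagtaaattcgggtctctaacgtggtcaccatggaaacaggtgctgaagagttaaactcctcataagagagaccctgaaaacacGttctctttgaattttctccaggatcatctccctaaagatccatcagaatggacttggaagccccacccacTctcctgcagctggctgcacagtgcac
Pramel7: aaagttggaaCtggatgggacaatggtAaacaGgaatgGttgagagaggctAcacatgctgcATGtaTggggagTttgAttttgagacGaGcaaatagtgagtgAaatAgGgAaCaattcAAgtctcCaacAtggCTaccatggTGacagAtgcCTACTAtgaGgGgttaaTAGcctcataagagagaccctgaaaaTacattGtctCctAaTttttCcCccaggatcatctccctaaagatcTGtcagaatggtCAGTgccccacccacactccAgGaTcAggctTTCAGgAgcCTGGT
Pramel7 itself read 8.55, 8.41, 8.31, 8.63 and 8.36 in P150KD, against 8.03, 8.03 and 7.81 in siControl. Its groups did not overlap, yet the difference of 0.49 (SE 0.16) was not called; it was called under 3 of the 20 alternatives, quantile normalization (0.72), housekeeping scaling (1.16) and trend with robust moderation. Pramel6 read 7.81, 8.07, 7.83, 7.79 and 7.77 in P150KD, against 7.93, 8.01 and 7.83 in siControl. Its groups overlapped, and its difference of -0.070 (SE 0.15) turned positive under quantile normalization and housekeeping scaling. Whether Pramel7 and Pramel6 differ in response was not tested.

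Pramel25, Pramel29 and Pramel13 completed the risen genes of the large cluster, all with differences near 1. Pramel25 read 1.78, 2.52, 1.68, 2.03 and 1.86 in P150KD, against 1.22, 0.77 and 0.32 in siControl, a difference of 1.20 (SE 0.28). Pramel29, whose start window matched that of Pramel25 at 95.1% over 284 bases, read 4.01, 3.31, 3.67, 4.31 and 4.02 in P150KD, against 2.82, 2.72 and 2.47 in siControl, a difference of 1.19 (SE 0.25). Pramel13 read 6.05, 6.20, 6.03, 6.25 and 5.48 in P150KD, against 5.07, 5.13 and 5.08 in siControl, a difference of 0.90 (SE 0.21). In Pramel13 the siControl arrays lay close together and P150KD array 5 stood apart below the other P150KD arrays. The Pramel13 call held in 1 of the 8 fits with an array left out, that without P150KD array 5.

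None of the oogenesins with a probe was called. Oog2 read 4.84, 5.12, 4.68, 4.99 and 4.84 in P150KD, against 4.60, 4.87 and 4.81 in siControl. These groups overlapped, and the difference was 0.14 (SE 0.17). Oog4 read -2.47, -0.82, -2.62, -2.81 and -3.81 in P150KD, against -3.49, -3.43 and -3.13 in siControl, a difference of 0.85 (SE 0.59) in which P150KD array 5 lay below all controls. Oog3 read -1.72, -6.54, -0.69, -4.41 and -1.55 in P150KD, against -1.29, -0.93 and -2.48 in siControl. Its difference of -1.42 came with an SE of 1.34; P150KD arrays 2 and 4 lay below all controls, and array 2 was not above background.

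The start windows of Oog1 to Oog4 formed 1 group with those of Pramel23, Pramel25, Pramel26, Pramel27, Pramel29 and Pramel32. The Oog2 window, chr4:144190467-144190766 on the plus strand, stands for the group because Oog2 was measured on every array and was not called; capitals mark TATAAA, which begins 30 bases before the start.
Oog2: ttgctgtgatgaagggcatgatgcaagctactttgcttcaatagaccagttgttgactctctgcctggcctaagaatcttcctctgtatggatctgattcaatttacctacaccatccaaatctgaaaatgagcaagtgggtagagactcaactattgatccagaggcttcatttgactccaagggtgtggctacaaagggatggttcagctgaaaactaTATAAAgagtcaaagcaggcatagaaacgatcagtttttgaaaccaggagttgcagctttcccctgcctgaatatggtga
Within this group Pramel25, Pramel29 and Pramel32 rose, while Oog2, Oog3, Oog4 and Pramel26 were not called. Pramel26, whose window matched that of Oog2 at 95.3% over 296 bases, had a difference of 0.20 (SE 0.80) with overlapping groups and the opposite sign under 5 of the 20 alternatives. Pramel32 read -5.23, -4.85, -5.18, -4.02 and -3.98 in P150KD, where 3 of 5 arrays were above background, against -6.41, -6.40 and -6.49 in siControl, where 0 of 3 were. With the siControl arrays counted at the lowest signal that passed as above background on them, the P150KD mean was 1.41-fold higher. That mean includes P150KD arrays not above background, so 1.41 is not a lower bound. With normexp background correction the difference was 0.37 and was not called. Nor was Pramel32 called with any 1 of the siControl arrays left out, with trend and robust moderation, or with either block.

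Several other genes of the large cluster read level or lower in P150KD, and 0 of them were called by their brightest probe. Pramel5 read 6.32, 6.48, 6.30, 6.20 and 6.01 in P150KD, against 6.72, 7.09 and 6.90 in siControl, and it was the only member whose P150KD arrays all lay below the controls (-0.64, SE 0.18); with housekeeping scaling that difference was 0.032. Pramel4, whose start window was 90.2% identical to that of Pramel5 over 296 bases, differed by -0.021 (SE 0.22) and changed sign under 6 of the 20 alternatives. Pramel12 read 4.86, 3.51, 4.08, 3.64 and 3.11 in P150KD, against 4.44, 4.73 and 5.03 in siControl. Only P150KD array 1 of Pramel12 lay among the controls, and the difference of -0.90 had an SE of 0.40; P150KD array 1 alone, in the slide column of the controls, stood 0.12 above their mean. Pramel22 read -4.62, -7.30, -3.17, -3.75 and -3.41 in P150KD, against -3.88, -3.38 and -2.44 in siControl (-1.22, SE 0.95), and here P150KD array 2 was not above background. Pramel24 read 4.78, 5.19, 4.82, 4.91 and 4.65 in P150KD, against 4.89, 4.998 and 5.10 in siControl, groups that overlapped (-0.13, SE 0.18).

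Of the chromosome 4 trio, Pramel19 had the highest difference in the family, but only 1 siControl array measured it. Pramel19 read 0.97, -0.12, -1.94, 2.39 and -0.48 in P150KD, against -3.000, -7.52 and -7.29 in siControl, a difference of 6.10 (SE 1.30). On siControl arrays 2 and 3 it was not above background, and with normexp background correction the difference was 3.66. Pramel17 stood at 3.50 ± 1.09 in P150KD (SD, n = 5) and 1.28 ± 0.80 in siControl (SD, n = 3), a difference of 2.22 (SE 0.67) that was not called although the groups did not overlap.

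The Pramel17 start window, chr4:101843973-101844272 on the minus strand, resembled no other family window at the set length but matched 20 windows of genes outside the family, at 76.1% to 90.0% identity, and is shown for that reason without capitals.
Pramel17: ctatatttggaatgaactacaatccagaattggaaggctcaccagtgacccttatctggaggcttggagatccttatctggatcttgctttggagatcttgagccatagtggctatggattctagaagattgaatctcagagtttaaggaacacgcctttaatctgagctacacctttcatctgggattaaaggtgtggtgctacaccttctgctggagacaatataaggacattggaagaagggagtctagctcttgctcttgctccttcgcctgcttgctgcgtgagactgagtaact
Of the genes with such windows 5 were tested. All 5 read higher in P150KD and 1 rose, Gm12789, beside 6.65% risen among all tested genes. Gm12789 read 4.41, 1.07, 1.45, 2.48 and 1.62 in P150KD, against -7.10, -2.30 and -5.05 in siControl (limma adjusted p = 0.0107). Gm12789 was above background on 1 of 3 siControl arrays, so its difference of 7.02 (SE 1.16) is not a measured fold; with normexp background correction it was 5.22. Gm4340 read 7.46, 5.36, 3.90, 7.18 and 6.17 in P150KD, against 2.97, 3.61 and 2.80 in siControl, and was not called (2.89, SE 0.80, adjusted p = 0.0523). Sgk1, a serum- and glucocorticoid-regulated kinase gene, Pemt, a phosphatidylethanolamine methyltransferase gene, and Eif4a3l1 were not called either, with differences of 0.55, 0.15 and 0.33. Pramel4 and Pramel5, neither of them called, also matched the windows of Gm12789, Sgk1 and Eif4a3l1. A shared start window thus went with a call in some genes and not in others.

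In the chromosome 5 cluster only Pramel34, Pramel37, Pramel39 and Pramel48 had a named probe. Pramel39 read 6.21, 4.27, 3.61, 6.64 and 5.62 in P150KD, against 2.06, 2.67 and 2.35 in siControl, a 7.49-fold higher signal (2.91, SE 0.71). Pramel48 read 7.14, 6.97, 6.61, 6.80 and 6.66 in P150KD, against 5.84, 5.86 and 6.25 in siControl, a 1.81-fold higher signal (0.85, SE 0.20). Both rose, Pramel39 with P150KD arrays 1, 4 and 5 well above 2 and 3, and Pramel48 with its 5 P150KD arrays close together. Pramel37 read 3.51, 0.70, 0.66, 4.83 and 3.97 in P150KD, against -1.01, -0.42 and -0.32 in siControl. Its P150KD arrays 1, 4 and 5 lay far above arrays 2 and 3, and the difference of 3.32 (SE 1.05) was not called. Pramel34 read 5.04, 3.96, 3.32, 4.08 and 3.82 in P150KD, against 2.11, 2.64 and 3.14 in siControl, groups that did not overlap but were not called (1.41, SE 0.41).

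This cluster holds the nearest copies of the family, and whether its values stand for 1 gene or several was not tested. The Pramel37 start window was identical to that of Pramel50 over 300 bases, the Pramel39 window matched that of Pramel43 at 99.7%, and the Pramel48 window matched that of Pramel38 at 98.6% over 281 bases. None of Pramel50, Pramel43 and Pramel38 had a named probe. The Pramel39 window, chr5:94306747-94307046 on the minus strand, is shown for the group of Pramel37, Pramel39, Pramel43, Pramel46, Pramel49 and Pramel50; capitals mark TATAAA, which begins 28 bases before the start.
Pramel39: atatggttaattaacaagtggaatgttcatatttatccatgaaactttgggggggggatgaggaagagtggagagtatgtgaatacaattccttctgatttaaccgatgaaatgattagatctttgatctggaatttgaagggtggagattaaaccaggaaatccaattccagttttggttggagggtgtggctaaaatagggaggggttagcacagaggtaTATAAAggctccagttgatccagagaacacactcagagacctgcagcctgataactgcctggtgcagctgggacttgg
The same letters begin 28 bases before the start of Pramel37 and Pramel50, 30 before that of Pramel43 and 41 before those of Pramel46 and Pramel49.

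Pramel51, on chromosome 12 beside Oog1, read 3.58, 3.09, 3.26, 3.02 and 2.53 in P150KD, against 1.83, 0.56 and 1.45 in siControl. It rose 3.51-fold (1.81, SE 0.35), and its lowest P150KD array was above its highest siControl array. Pramel3, the member on the X chromosome, was not above background on any array; a pair of predicted genes with start windows 99.0% identical to its own, Gm7903 and Gm15023, were tested and not called (2.03, SE 0.87, adjusted p = 0.165, and 2.10, SE 1.11, adjusted p = 0.245). Gm7903 was above background on 2 of 3 siControl arrays and Gm15023 on 1, so these differences rest partly on unmeasured control values.

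Probes of a gene did not always give the same call. Of 44 tested member probes 24 rose and 0 fell, against 6.28% of all tested probes that rose. Among the 12 members with several tested probes, 6 had probes with 1 call throughout and 6 did not; counting a gene by any of its probes, 18 members rose. Without the probes of Pramel32 and Pramel24 that were above background on no siControl array, 22 of 42 probes rose. Of all probes above background on 1 or more siControl arrays, 5.61% rose. Counted by any remaining probe, 16 members rose. The share of all genes that rose by any probe was not computed, so the 18 and 16 members have no matching share. Pramel24 differed most: the dimmest of its 3 probes rose. It read -0.79, -2.68, -3.24, -0.61 and -0.74 in P150KD, all above background, against -5.40, -7.19 and -6.93 in siControl, none above background. With the siControl arrays counted at the lowest signal of any probe that passed as above background, the P150KD mean was 11.6-fold higher. The second Pramel24 probe read lower, 4.62, 4.65, 4.35, 4.07 and 4.07 in P150KD, against 4.89, 5.40 and 5.07 in siControl, without a call (-0.77, SE 0.23). These probes thus pointed in opposite directions for 1 symbol, and which transcript each one binds was not tested.

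For Pramel25 the second probe showed no separation, with -2.60, -2.59, -2.29, -2.73 and -2.54 in P150KD, against -2.44, -2.28 and -2.57 in siControl. Pramel34 rose by its second probe, which read 4.41, 3.60, 2.63, 3.70 and 3.28 in P150KD, against 0.72, 1.04 and 1.57 in siControl (2.41, SE 0.41). Pramel37 likewise rose by its second probe, which read 1.19, -0.82, -2.10, 2.01 and 1.40 in P150KD, against -4.41, -2.79 and -4.17 in siControl (4.13, SE 0.99). In Pramel34 and Pramel37 the brighter probe showed the same direction with a smaller difference. The second Pramel15 probe, above background on 2 of 3 siControl arrays, differed by 3.72 (SE 1.08) and was not called. Of the 4 probes of Pramel48, 3 rose and the dimmest was not called, with differences from 0.85 to 1.05. All tested probes of Pramel30, Pramel31, Pramel39 and Pramel51 rose.

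**Figure D3:**
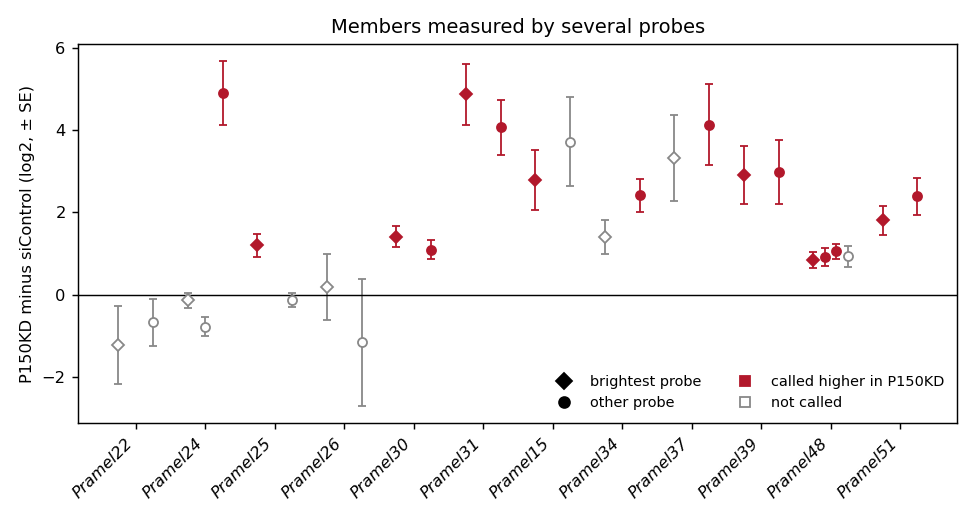
Difference between P150KD and siControl (log2 signal ± SE of the limma fit) for every tested probe of the 12 members with several; diamonds are the brightest probe of a gene, circles its other probes, red marks called higher in P150KD and open grey marks not called. The probes of Pramel24 run from -0.77 to 4.90, where the highest belongs to a probe above background on no siControl array, while those of Pramel48 lie between 0.85 and 1.05.

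RefSeq windows were given for 41 of the 51 members, 28 of them on the array. Across the 820 pairs of these windows the median identity was 47.8%, and 14 pairs reached 90%. Windows that matched another over at least 200 bases fell into 7 groups with 29 members. Besides those named above, the groups were Pramel24 with Pramel11, Pramel4 with Pramel5, and Pramel33, Pramel35, Pramel38 and Pramel48. The windows of the risen genes Pramel13, Pramel15, Pramel16, Pramel19 and Pramel21 matched no other member. So the risen genes came both from groups with shared windows and from genes without one.

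**Figure D4:**
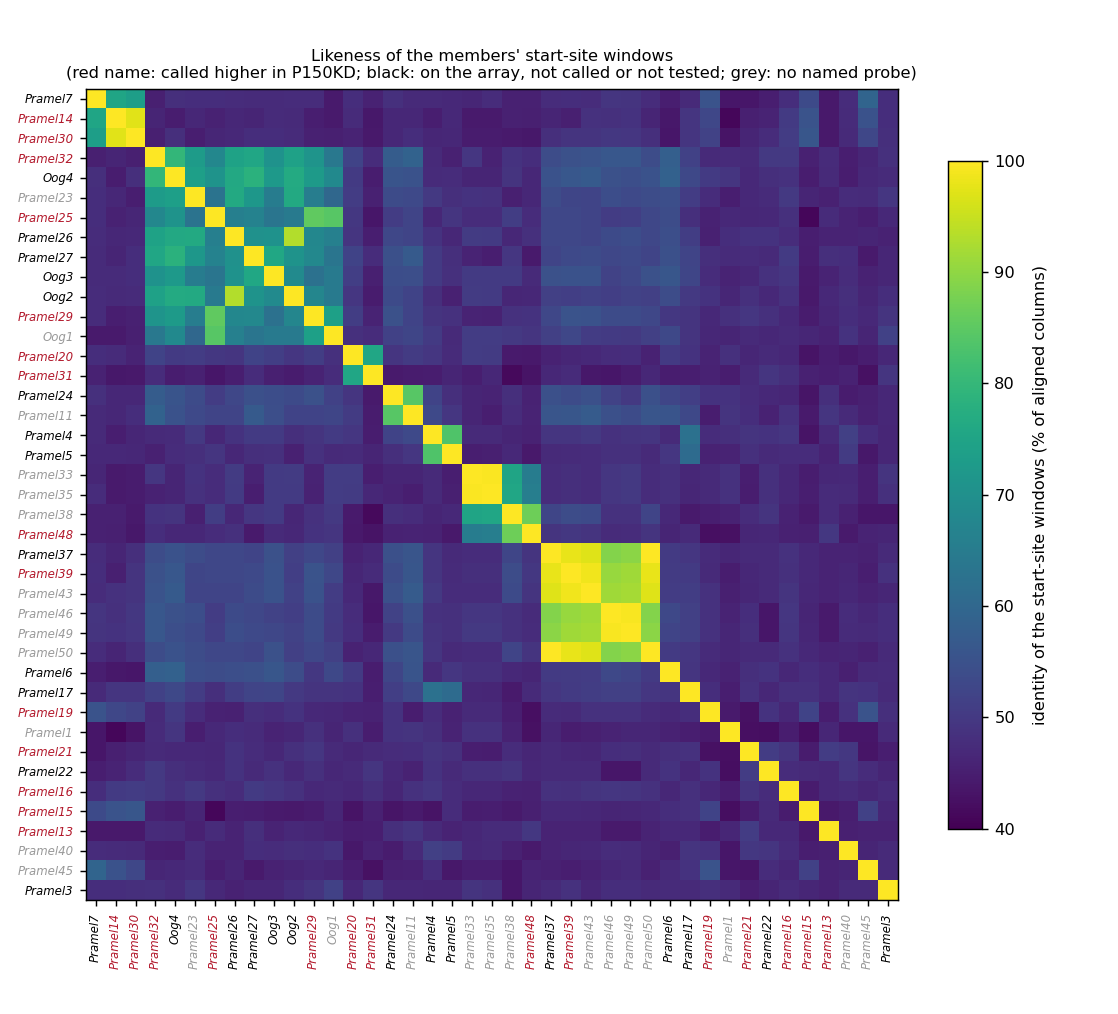
Percent identity of aligned start-site windows for each pair of the 41 members with a RefSeq window, in the same order on both axes and grouped by shared windows. Gene names in red were called higher in P150KD, names in black were on the array without a call, and names in grey had no named probe; bright blocks such as that of Pramel37 and Pramel39 with their unprobed copies hold the nearest relatives.

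Letter searches on both strands described these windows further. TATAAA was present in 14 of 41 member windows (34.1%), against 13.6% of all 32851 windows, and CCAAT in 21 (51.2%), against 37.4%. The E-box letters CANNTG were found in 38 (92.7%), against 72.3% of all windows, and the STAT site letters TTCNNNGAA in 0 of 41, against 8.3%. Since the members are copies of one another, they are not independent draws, and a match or its absence says only which letters stand in the window.

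Of 18 companion genes around the known actions of the family, all tested, 2 rose and 2 fell, with a median of -0.16, beside 6.65% risen and 10.5% fallen among all tested genes. Uhrf1, the known target of Pramel7, read 4.10, 3.98, 3.81, 4.30 and 4.41 in P150KD, against 5.38, 5.51 and 5.63 in siControl. It fell by 1.39 (SE 0.19, limma adjusted p = 0.00619), and its P150KD arrays all lay below the controls. Housekeeping scaling left -0.71 with a limma adjusted p of 0.0813. P150KD array 1 alone, in the slide column of the controls, differed from their mean by -1.41. The known action of Pramel7 is on the protein, while the arrays measure RNA, and a link between Pramel7 and the Uhrf1 signal was not tested. Dnmt1, the partner gene of Uhrf1, was not called (0.29). The listed genes of cullin-based ubiquitin ligases, Cul2, Elob, Eloc, Rbx1, Cul5, Rnf7 and Vhl, were not called, with differences from -0.65 to 0.50.

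Upstream of Pramel7 lies signalling by LIF through its receptor and STAT3. Stat3 read -1.09, -3.11, -1.76, -1.02 and -2.08 in P150KD, against 1.87, 0.55 and 0.48 in siControl. It fell by 2.78 (SE 0.56, limma adjusted p = 0.0194), with no overlap between groups. It was not called without siControl replicate 1 (limma adjusted p = 0.0710) or with housekeeping scaling (limma adjusted p = 0.0524). P150KD array 1 alone, in the slide column of the controls, differed from their mean by -2.05. Socs3, a feedback inhibitor of this pathway, read 6.99, 6.12, 6.06, 6.68 and 6.03 in P150KD, against 3.01, 3.52 and 3.30 in siControl. It rose by 3.10 (SE 0.29, limma adjusted p = 0.00196), and P150KD array 1 alone stood 3.72 above the siControl mean. Lif, Lifr and Il6st, which encode the ligand and its receptor chains, were not called, with differences of 1.22, 1.73 and 1.86 and 1 of 3 siControl arrays not above background in each. Human PRAME is known to repress retinoic acid receptors with EZH2. Rarg, one of those receptors, read 3.82, 3.17, 3.64, 4.02 and 3.69 in P150KD, against 2.26, 2.004 and 0.76 in siControl. It rose by 1.99 (SE 0.37, limma adjusted p = 0.0154), and P150KD array 1 alone stood 2.14 above the siControl mean. Rara, Rarb and Ezh2 were not called, with differences of -0.91, -0.25 and -0.72.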

How the data were processed

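Per the file headers, each array was scanned in 1 colour (Cy3) and read with Agilent Feature Extraction 10.5.1, which the submitters' processing notes name too. The processed signal deposited by the authors is an intensity from which background was subtracted, with spatial detrending and no scaling across arrays. Median spot and background intensities and 0 or 1 flags of another kind were read too, as deposited. Log2 values deposited by the authors as a series table correlated at 1 with scanner values scaled to the 75th percentile and centred per probe (column medians -0.21 to 0.091) and were an alternative only. Array coordinates follow mm9, while RefSeq windows are of GRCm38.p6, so no array coordinates were used.

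Of 59305 non-control spots, those of the same probe were averaged on the log2 scale, leaving out non-uniform or outlier spots if others remained, giving 55681 probes; 27235 were named by joining accessions to RefSeq. The 75th percentile over probes, 1066 to 1304 on P150KD arrays and 819 to 1150 on siControl arrays, was subtracted. Testing required a probe to exceed background on 3 or more arrays and used the lmFit and eBayes functions of limma 3.58.1, with R 4.3.3, two-sided and without covariates; Benjamini-Hochberg adjustment covered 30348 probes, with a threshold of 0.05. The tested probe with the highest mean stood for its gene. Windows were matched with BLAST 2.17.0+ (plus strand, word size 11, E at most 1e-6, at least 200 aligned bases) and aligned pairwise with Biopython 1.88.

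Members and lists were chosen with earlier results of these data known. Values on every array are given for called members without overlap, the 5 largest and 5 smallest differences, Pramel6, Pramel7, the oogenesins and members with disagreeing probes; other members are given by difference. Lists were companions, morula, oocyte, cumulus, sperm, testis germ cell and 2-cell genes. Alternatives were normexp with an offset of 50 on the median signal (no mean was used), quantile, median and housekeeping scaling (13 genes), the series table, no filter, only probes above background on all 8 arrays, blocks by replicate number or slide column, trend with robust moderation, array weights (statmod 1.5.0), a mean over each gene's probes, and each array left out. All arrays lay on 1 slide, so a slide block was not run. Deviations from the group means correlated at -0.014, -0.0745 and -0.0168 between arrays of the same number. Arrays of unlike number were not compared, so these values cannot settle whether the numbers pair the arrays. The procedure was tested on simulated data. Tables and figures used Python 3.11.15, pandas 2.3.3, numpy 2.4.6 and matplotlib 3.10.9.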

Additional observations from a re-analysis of the deposited data

Results flagged for a closer look

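In 63 groups of member values, 1 array was set against the range of its group of 5, which chance alone would single out in about 1 group of 20; 2 were singled out. For Pramel6, P150KD replicate 2 was the highest at 8.07, and its gap to the next array was 0.796 of the range of the 5, above the critical value of 0.71. For the second probe of Pramel22, P150KD replicate 2 was the lowest at -6.34, with a gap of 0.810 of the range. The first Pramel22 probe had its lowest value on the same array, at -7.30. Neither gene was called.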

How the results depend on the processing

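With the replicate number as a block, 0 probes, 0 members and 0 companions were called by limma (6371 probes and 14 members at an unadjusted p under 0.05), and Chaf1a stood at -2.73 (adjusted p = 0.163). The slide column as a block gave 713 probes, 0 members, 1 companion, -3.72 for Chaf1a (adjusted p = 0.0509) and a chromosome 5 median of 3.13. Members called were 9 with median scaling and 9 with no filter. Housekeeping scaling put the family median at 1.88 and the large chromosome 4 cluster at 1.58. Trend and robust moderation called 7 companions. The risen share of called probes was 45.1% in the main setting, 58.3% with quantile normalization and 92.0% with housekeeping scaling (4995 rose, 434 fell). Leaving out 1 array gave 1706 to 3749 probes and 5 to 13 members; the fewest probes came without siControl replicate 1, with 2256 and 2172 without replicates 2 and 3. The cause was not tested. Another 118 values of these summaries stayed on the same side or within the spread between replicates, and 0 reversed. Single members moved beyond their spread in 33 values and stayed within it in 543; among those that moved were Pramel24 (1.33, called) and Pramel25 (0.54, not called) with the mean of all probes. Precision is limited by 3 siControl arrays and by dim probes: 4 of the 29 tested members were not above background on all 8 arrays.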
